A study of Homo sapiens with 15 samples.

Results

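The libraries with BRG1 knocked down were compared directly with the libraries with BRM knocked down, gene by gene, in HepG2 cells. The comparison took 7 of the 15 libraries of the series, all 4 labelled shBrg1 and all 3 labelled shBrm, by their sample labels, and used every gene. HepG2 is a human liver cancer cell line that still transcribes many hepatocyte genes. Every library came from cells infected with lentivirus carrying an shRNA, which then went through puromycin selection and were collected on day 5 after transduction. The controls carried shNS, the non-silencing hairpin, in 4 libraries, and the remaining 4 libraries carried both knockdowns. The hairpin sequences, and how many hairpins were used for each target, were not given in the sources used here. The 8 other libraries were not part of the contrast. They entered the estimate of the spread between libraries, the choice of genes to test and the scaling of the libraries. The shNS levels are printed beside the values as a reference for the level in control cells.

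BRG1, encoded by SMARCA4, and BRM, encoded by SMARCA2, are the alternative ATPases of the SWI/SNF chromatin remodelling complexes. Each complex holds one of them, which uses ATP to slide or evict nucleosomes and so changes access to promoters and enhancers. In liver cells these complexes work with hepatocyte transcription factors such as HNF4A and CEBPA, and elsewhere with AP-1 at enhancers. A direct comparison shows where transcript levels differ according to which of the ATPases was lost. A value given as a log2 difference below is the level in BRG1 knockdown minus that in BRM knockdown, ± its SE, so that a positive value is higher in BRG1 knockdown. Levels are given as CPM, counts scaled to a common library size and composition, and a gene was called when its adjusted p was under 0.05 in edgeR's quasi-likelihood test.

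The 4 BRG1 knockdown libraries held 17291281 to 23734366 counts and the 3 BRM knockdown libraries 12550787 to 26998203. In every group the libraries numbered 1 and 2 differed from the ones numbered 3 and 4. In BRG1 and BRM knockdown the mitochondrially encoded share of counts was 4.97% to 8.05% in libraries 1 and 2 and 1.78% to 3.55% in libraries 3 and 4. Both knockdowns had libraries of each set, 2 and 2 for BRG1 and 2 and 1 for BRM, so that differences were also computed within each set. Separate cultures are not stated in the labels, and a p-value here reflects only how the libraries of a group vary, which may be technical.

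Both targets were lowest in the group whose label names them. SMARCA4 (chromosome 19, 10960825 to 11079426, plus strand, GRCh38) was at 29.3, 29.002, 28.6 and 24.4 CPM in the 4 BRG1 knockdown libraries. It was at 281, 312 and 444 CPM in the 3 BRM knockdown libraries, against 297 to 312 in shNS. Every BRG1 library lay below every BRM library (log2 −3.64 ± 0.18, adjusted p = 6.64e-08). SMARCA2 (chromosome 9, 1980290 to 2193624, plus strand) was at 28.1, 29.5, 21.6 and 23.9 CPM in BRG1 knockdown, 6.85, 2.55 and 3.73 in BRM knockdown and 33.2 to 41.4 in shNS. Here every BRG1 library lay above every BRM library (log2 2.57 ± 0.28, adjusted p = 9.28e-06).

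**Figure D1:**
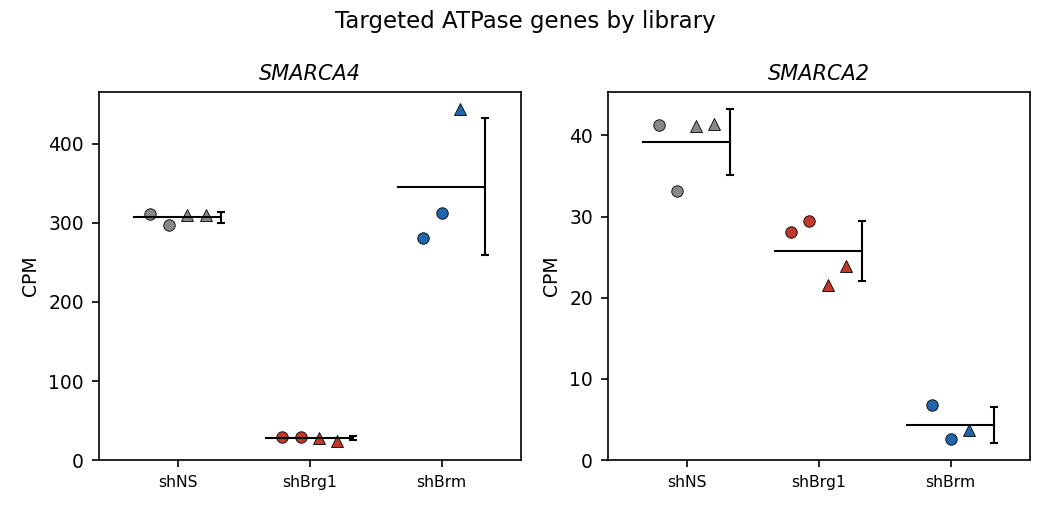
CPM of SMARCA4 and SMARCA2 on linear axes in each shNS, BRG1 knockdown and BRM knockdown library. Circles are libraries 1 and 2, triangles libraries 3 and 4, horizontal lines group means and error bars the SD; SMARCA4 lay at 24.4 to 29.3 CPM in BRG1 knockdown, and SMARCA2 at 2.55 to 6.85 CPM in BRM knockdown.

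Of the 14621 genes tested, 33.9% were called, 2520 higher in BRG1 knockdown (17.2% of those tested) and 2437 lower (16.7%). At least a 2-fold difference was seen for 1633 of the higher and 1560 of the lower genes. The larger differences were more often on the higher side, with 364 genes at least 8-fold higher against 216 at least 8-fold lower. In 2336 of the 2520 higher genes and 2239 of the 2437 lower genes, all 4 BRG1 libraries lay apart from all 3 BRM libraries, as did 37.3% of all tested genes. Every called gene had the same sign in libraries 1 and 2 as in libraries 3 and 4. The calls were made from these same libraries, so that the shared sign is not a separate check. Of all tested genes, 104 (0.711%) differed by set in the size of the difference, by edgeR's test of the interaction, 77 of them called genes. With the library number as a block 3654 genes were called higher (25% of those tested) and 3565 lower (24.4%). List counts given below for this replicate block are to be read beside these shares. In a fit of the 7 libraries alone 1984 were called higher and 1879 lower.

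**Figure D2:**
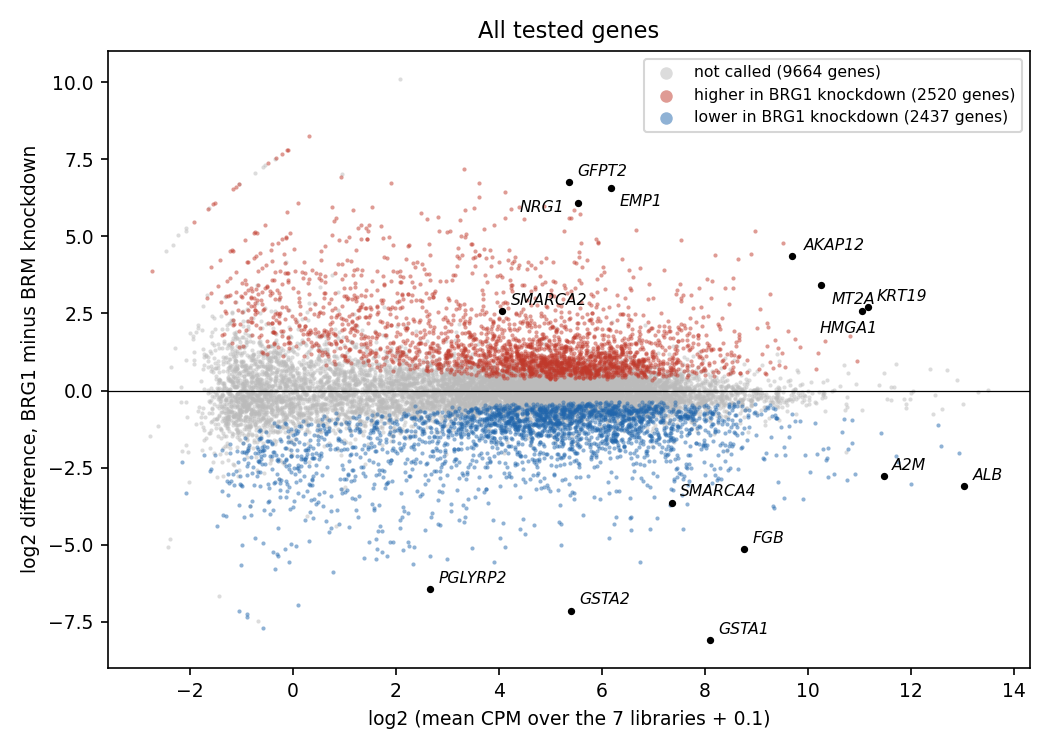
Log2 difference of BRG1 minus BRM knockdown against log2 of the mean CPM over the 7 libraries plus 0.1 for the 14621 tested genes. Red points are the 2520 genes called higher in BRG1 knockdown, blue points the 2437 called lower and grey points those not called; GSTA1 and GSTA2 lie far below 0 and GFPT2, EMP1 and NRG1 far above it.

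The 12 largest differences on the higher side of the rule included a growth factor, membrane proteins and proteases. GFPT2, an entry enzyme of hexosamine synthesis (chromosome 5, 180300690 to 180353387, minus strand), was at 66.0, 59.0, 71.0 and 87.2 CPM in BRG1 knockdown and at 0.645, 0.450 and 0.830 CPM in BRM knockdown (log2 6.77 ± 0.44, adjusted p = 3.27e-07). Its shNS level was 0.480 to 1.48 CPM. EMP1, a membrane protein of the claudin-like PMP22 family (chromosome 12, 13196716 to 13219939, plus strand), was at 180.5, 158, 79.3 and 84.1 CPM against 1.45, 0.95002 and 1.52 CPM (log2 6.58 ± 0.51, adjusted p = 9.61e-07). In both genes the lowest BRG1 library lay far above the highest BRM library. NRG1, a ligand of ERBB3 and ERBB4, was at 110.2, 112, 55.1 and 41.5 CPM in BRG1 knockdown and 1.61, 0.900 and 1.11 in BRM knockdown, with 0.553 to 4.37 in shNS. FXYD5, a regulator of the sodium pump, was at 51.1, 38.9, 59.9 and 52.0 CPM against 0.484, 0.450 and 1.34. The other genes among the 12 largest were MYBPH (log2 7.18 ± 0.64), ADAMTS14 (6.74 ± 1.02), KLK6 (6.73 ± 0.87), ZNF804A (6.44 ± 0.69), SPOCK1 (6.27 ± 0.95), NTSR1 (5.97 ± 0.57), PRSS22 (5.95 ± 0.60) and SYT13 (5.93 ± 0.58). KLK6, a kallikrein protease, had only 3 counts in the 3 BRM libraries together against 564 in the 4 BRG1 libraries, a ratio of 115.5 per effective library size with a 95% exact interval of 39.3 to 562 that covers counting error only.

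The 12 largest differences on the lower side included enzymes of detoxification, lipid and glucose metabolism and secreted liver proteins. GSTA1 (chromosome 6, 52791664 to 52803910, minus strand), a glutathione transferase of hepatocytes, was at 1.07, 1.24, 4.13 and 2.85 CPM in BRG1 knockdown and at 705, 749 and 446 CPM in BRM knockdown (log2 −8.09 ± 0.54, adjusted p = 3.41e-07). Its shNS level of 15.3 to 46.8 CPM lay between the 2 knockdowns. Its neighbour and close copy GSTA2 was at 0.513, 0.724, 0.914 and 0.590 CPM against 98.96, 120.2 and 73.4 CPM, with 2.09 to 10.5 in shNS. Reads shared between these near-identical genes could have been split between them by the estimation, and their separate levels are uncertain. PCK1, the enzyme that commits carbon to gluconeogenesis, was at 0, 0.0517, 0.174 and 0.540 CPM against 5.64, 5.2001 and 10.97 CPM. Also among the 12 were PGLYRP2 (log2 −6.43 ± 0.65), GBA3 (−5.64 ± 0.60), ACSM2B (−5.56 ± 0.47), UGT2B4 (−5.47 ± 0.73), HHIPL2 (−5.47 ± 0.68), SIGLEC11 (−5.45 ± 0.74), ACY3 (−5.37 ± 0.54) and GPHA2 (−5.36 ± 0.76). PGLYRP2 is a secreted amidase of bacterial cell walls made by the liver, and UGT2B4 conjugates bile acids.

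The 250 bases before the RefSeq start of GSTA1 and GSTA2 are shown because these genes had the largest negative differences of the rule. A match to letters of an HNF1 site, GTTAAT on either strand, is in capitals, and the promoters of ALB and AFP, which hold the same letters, follow. All are written 5′ to 3′ on the gene's strand from RefSeq, build GRCh38.p14. The windows are chr6:52803817-52804066 for GSTA1 and chr6:52763476-52763725 for GSTA2, both on the minus strand, and chr4:73404037-73404286 for ALB and chr4:73435971-73436220 for AFP, both on the plus strand.
GSTA1: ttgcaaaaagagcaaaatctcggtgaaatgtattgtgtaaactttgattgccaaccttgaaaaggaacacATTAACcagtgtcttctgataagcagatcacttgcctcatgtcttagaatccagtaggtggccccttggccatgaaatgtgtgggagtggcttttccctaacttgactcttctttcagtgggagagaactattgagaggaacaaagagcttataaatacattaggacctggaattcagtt
GSTA2: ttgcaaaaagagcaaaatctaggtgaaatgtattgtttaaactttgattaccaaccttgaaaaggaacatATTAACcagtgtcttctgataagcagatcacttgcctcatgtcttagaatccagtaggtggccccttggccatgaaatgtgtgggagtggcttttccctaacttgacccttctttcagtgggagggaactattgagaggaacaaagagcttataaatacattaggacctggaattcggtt
ALB: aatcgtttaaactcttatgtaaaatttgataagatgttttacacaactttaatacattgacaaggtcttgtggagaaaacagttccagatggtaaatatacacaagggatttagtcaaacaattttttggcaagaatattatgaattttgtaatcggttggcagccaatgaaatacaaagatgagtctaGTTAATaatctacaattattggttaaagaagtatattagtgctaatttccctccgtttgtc
AFP: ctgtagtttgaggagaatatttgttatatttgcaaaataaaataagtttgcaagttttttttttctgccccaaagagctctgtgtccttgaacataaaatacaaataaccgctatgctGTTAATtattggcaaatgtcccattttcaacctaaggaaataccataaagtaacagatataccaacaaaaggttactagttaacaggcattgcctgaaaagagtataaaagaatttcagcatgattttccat
The GSTA1 and GSTA2 stretches were identical at 243 of 250 positions. In both, the match began 180 bases before the start.

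Of the genes with the largest positive differences, EMP1 held the letters of an AP-1 site, TGANTCA, 2 times in the same window, and MT2A, one of the 6 with the largest positive CPM differences, held them 1 time. The windows, chr12:13196476-13196725 for EMP1 and chr16:56608334-56608583 for MT2A on the plus strand, are shown with these matches in capitals. Of the 18 genes of the rule's largest differences on each side, 12 higher and 7 lower genes had a promoter in the table. The AP-1 letters were found in this window in at least 2 and 1 of them, as some of these promoters may not have been searched.
EMP1: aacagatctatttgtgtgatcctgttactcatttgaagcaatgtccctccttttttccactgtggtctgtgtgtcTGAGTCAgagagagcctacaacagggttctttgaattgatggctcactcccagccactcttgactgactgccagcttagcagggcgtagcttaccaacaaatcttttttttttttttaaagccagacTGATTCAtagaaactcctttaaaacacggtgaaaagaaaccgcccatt
MT2A: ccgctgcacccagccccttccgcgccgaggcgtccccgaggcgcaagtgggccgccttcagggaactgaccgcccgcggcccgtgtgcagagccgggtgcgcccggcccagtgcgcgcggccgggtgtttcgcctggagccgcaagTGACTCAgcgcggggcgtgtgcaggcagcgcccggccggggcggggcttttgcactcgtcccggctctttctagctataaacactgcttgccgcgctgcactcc
Over all promoter entries of tested genes, 5.43% held the AP-1 letters, against 13.6% of those at least 8-fold higher in BRG1 knockdown and 6.63% of those at least 8-fold lower. The HNF1 letters GTTAAT were in 4.50% of all, 5.79% of those at least 8-fold higher and 13.26% of those at least 8-fold lower. The HNF4 letters CAAAGTC were in 2.67%, 4.03% and 8.84% in the same order, and the E2F letters TTTCGCG in 2.09%, 1.51% and 0.553%. Shares for the TEAD letters GGAATG were 11.5%, 13.1% and 14.9%, for the FOXA letters TGTTTAC 2.62%, 2.27% and 3.31%, and for CCAAT 34.5%, 28.5% and 33.1%. Over all called genes, whatever their fold difference, some of these contrasts were smaller. The AP-1 letters were in 7.665% of 3105 entries of higher genes and 5.369% of 2738 entries of lower genes. In the same order the HNF1 letters were in 4.348% and 5.625% and the HNF4 letters in 2.576% and 3.397%. The E2F letters were in 1.224% and 2.045%, the latter near the 2.09% of all. These are matches of letters on both strands in windows of 250 bases before to 50 after a start, over 15969 promoter entries, 397 of them of genes at least 8-fold higher and 181 of genes at least 8-fold lower, with genes of more than 1 start counted at each. AP-1 letters also occur among the lower genes, for example in SIGLEC11.

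Among abundant transcripts the largest differences in CPM included secreted liver proteins on the lower side and keratins, chaperone and chromatin genes on the higher side. Albumin, ALB (chromosome 4, 73397114 to 73421412, plus strand), was at 873, 684, 2912 and 3379 CPM in BRG1 knockdown and 17437, 19265 and 13879 CPM in BRM knockdown, against 6375 to 8579 in shNS (log2 −3.10 ± 0.48, adjusted p = 1.85e-04). BRG1 libraries 1 and 2 had the lowest ALB levels, and the 2 groups did not overlap. Alpha-fetoprotein, AFP, was at 539.9, 425, 1347 and 1686 CPM against 9739, 6686 and 8203 CPM, with 2438 to 5284 in shNS. A2M, the plasma protease inhibitor alpha-2-macroglobulin, was at 377, 356, 1099.5 and 1396 CPM against 4952, 5531 and 6051 CPM. APOB, the structural protein of LDL (log2 −1.81 ± 0.53), FTH1, the ferritin heavy chain (−2.33 ± 0.28), and MTRNR2L12 (−2.02 ± 0.56) completed the 6 on this side. APOB missed the threshold when BRM library 2 was left out (adjusted p 0.0507). On the higher side, KRT19, a keratin of bile duct cells, was at 2949, 2540.2, 4739 and 4260 CPM in BRG1 knockdown and 298, 544 and 814 in BRM knockdown (log2 2.71 ± 0.44, adjusted p = 2.83e-04). HMGA1, an architectural chromatin protein, was at 1792 to 4764 CPM against 258 to 1097 CPM, and the zinc-binding metallothionein MT2A at 1162 to 2739.9 against 35.0 to 457. KRT18 (1.755 ± 0.46), the kinase anchor AKAP12 (4.35 ± 0.29) and the chaperone HSPA8 (0.97 ± 0.17) completed this side. FTH1, KRT18, HSPA8, HMGA1 and the metallothioneins have processed copies or close relatives in the genome, and MTRNR2L12 resembles mitochondrial ribosomal RNA, so that their counts could hold reads of those.

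**Figure D3:**
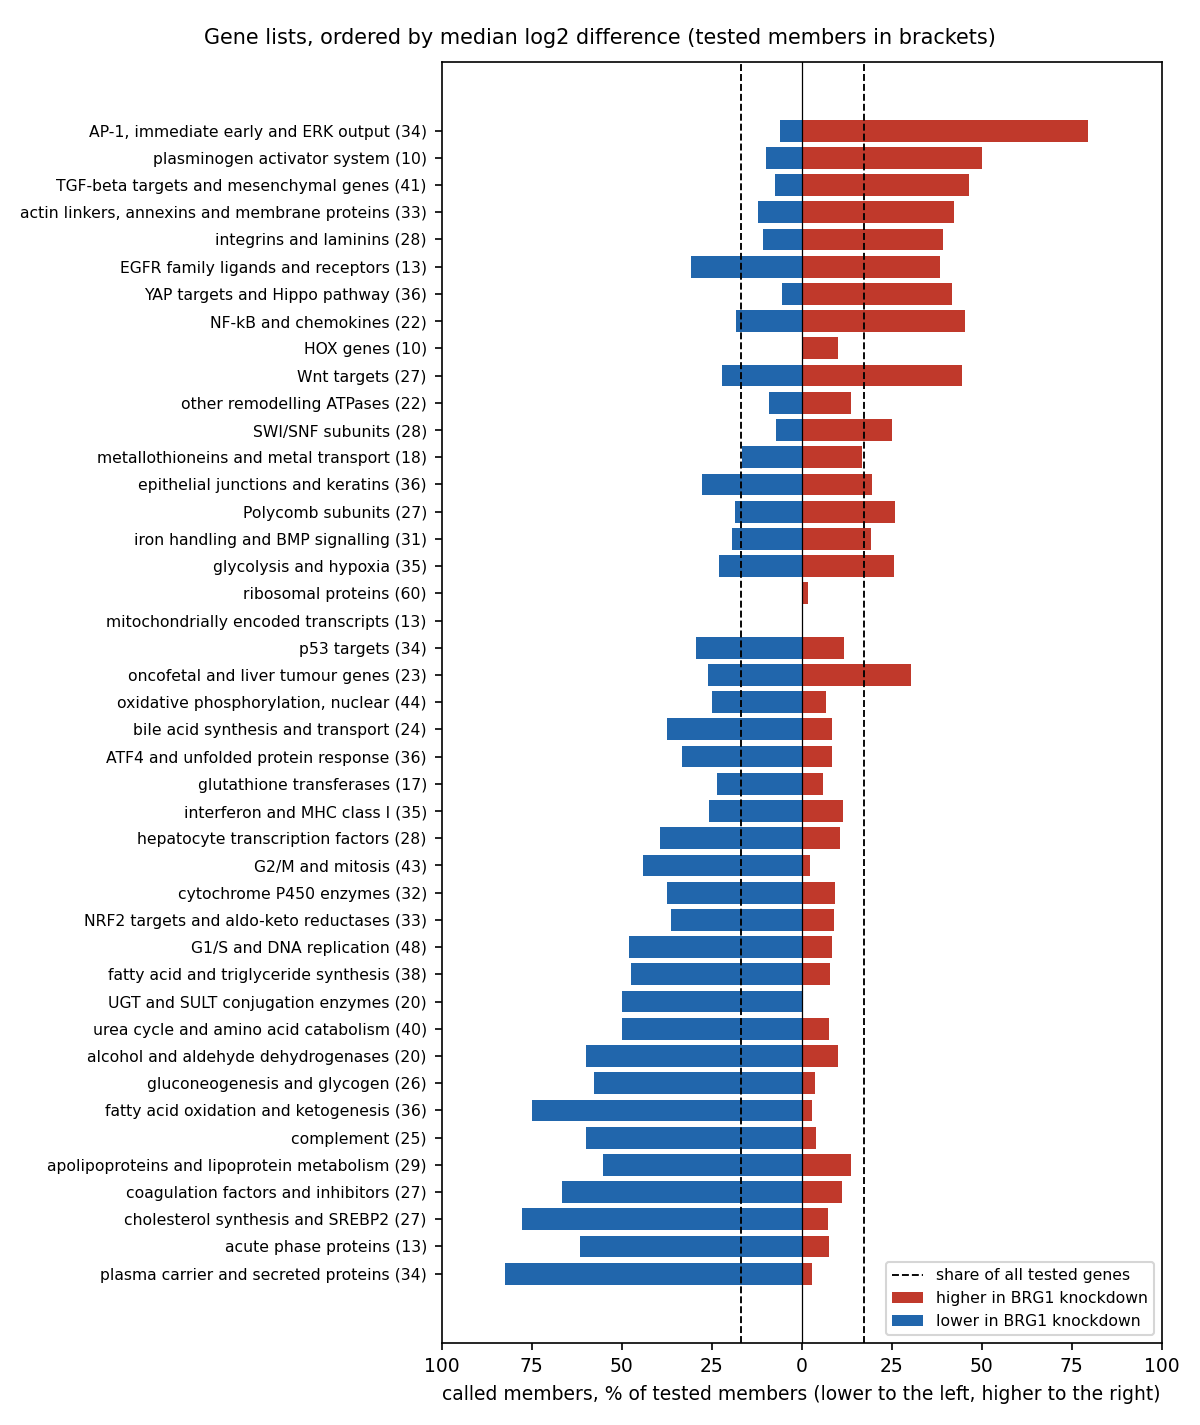
For 43 gene lists, ordered from top to bottom by median log2 difference, the percentage of tested members called higher (red, right) or lower (blue, left) in BRG1 knockdown than in BRM knockdown. Dashed lines mark the shares of all tested genes, 17.2% higher and 16.7% lower; liver secretion and lipid lists lie at the bottom and the AP-1 list at the top.

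Most genes of liver secretion were lower in BRG1 knockdown. Of 34 tested plasma carrier and secreted proteins, 28 were lower and 1 higher, with a median log2 difference of −2.63 beside −0.024 over all tested genes. Antithrombin, SERPINC1, was at 5.43 to 37.9 CPM in BRG1 knockdown and 319 to 478 CPM in BRM knockdown. The inter-alpha-trypsin inhibitor chains ITIH1 (log2 −3.87), ITIH3 (−4.49) and ITIH4 (−2.87) were lower. The iron carrier transferrin, TF, was lower by 7.40-fold and the retinol carrier RBP4 by 7.41-fold. Transthyretin (TTR), haptoglobin (HP, log2 −0.50 ± 0.70) and alpha-1-antitrypsin (SERPINA1, −0.75 ± 0.32) did not pass the test. With the replicate block, a fit with the library number as a further term, SERPINA1 passed it, with edgeR's adjusted p = 0.0140. The 1 higher member, the copper oxidase ceruloplasmin CP, had a log2 difference of 0.77 in libraries 1 and 2 and 3.50 in libraries 3 and 4, and its adjusted p was 0.0596 with the replicate block. CP also missed the threshold when 1 of BRG1 library 4 and BRM libraries 1, 2 and 3 was left out (adjusted p 0.0518 to 0.0831).

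All 3 fibrinogen chains were lower in BRG1 knockdown. FGB was at 7.30, 5.84, 42.8 and 53.2 CPM in BRG1 knockdown, 1031, 913 and 963 in BRM knockdown and 80.8 to 205 in shNS (log2 −5.15 ± 0.69, adjusted p = 6.06e-05). FGA (−3.53) and FGG (−3.81) had the same direction. Of 27 coagulation factors and inhibitors, 18 were lower, among them prothrombin F2 (−1.78), F5 (−2.11), F7 (−3.10), F10 (−2.83) and F11 (−3.05), and GGCX, which carboxylates vitamin K-dependent factors (−1.39). The 3 higher members were F8 (1.55) and the inhibitors of the tissue factor pathway, TFPI (1.08) and TFPI2. TFPI2 was at 9.07 to 10.96 CPM against 0.0806 to 0.369 CPM. In the plasminogen activator system, which dissolves fibrin and remodels matrix, 5 of 10 members were higher. They included the proteases PLAU (4.92) and PLAT (1.77), the receptor PLAUR (3.42) and the inhibitor SERPINE2 (3.11), while the plasmin inhibitor SERPINF2 was lower (−2.55). PLAU was at 102, 96.2, 100.3 and 105 CPM in BRG1 knockdown, 1.93, 3.25 and 4.66 in BRM knockdown and 6.41 to 14.2 in shNS. Of 25 complement genes, 15 were lower, including C3 (−1.89), CFB (−1.93), C6 (−3.07) and the proteases C1R (−2.67) and C1S (−2.18), and only the membrane inhibitor CD59 was higher (0.77).

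Lipid genes differed along most of their pathways. Of 27 genes of cholesterol synthesis and SREBP2, its transcription factor, 21 were lower in BRG1 knockdown and 2 higher, with a median of −2.06. SQLE, the squalene epoxidase, was at 36.9, 38.5, 97.4 and 111 CPM in BRG1 knockdown and 297, 263 and 404 in BRM knockdown, with 79.3 to 304 in shNS. HMGCS1 (−2.67), MVK (−3.05), LSS (−2.38) and SREBF2 itself (−2.29) were lower too. INSIG2, which retains SREBP proteins in the endoplasmic reticulum, was among the higher members (0.68).

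Of 29 genes of apolipoproteins and lipoprotein metabolism, 16 were lower. They included APOA5 (0.473 to 1.92 CPM against 26.4 to 52.2), APOA4 (−3.15), APOC3 (−3.12), APOA1 (−2.69), APOE (−1.91) and MTTP, which loads lipid onto APOB (−3.70). The 4 higher members included the transfer protein CETP (1.94) and APOA2 (1.21), which missed the threshold when 1 of BRG1 libraries 3 and 4 and BRM libraries 1 and 2 was left out (adjusted p 0.0571 to 0.0966). Without any 1 of BRG1 libraries 3 and 4 and BRM libraries 1 and 2, only 1 member of this list was higher. Fatty acid and triglyceride synthesis had 18 of 38 members lower, among them the desaturase FADS1 (−2.21), the acyltransferases GPAM (−3.50), DGAT1 (−2.39) and DGAT2 (−1.96), and the glucose-responsive factor MLXIPL (−2.77). The fatty acid synthase FASN (log2 −2.01 ± 0.83), the citrate lyase ACLY (−0.89 ± 0.48) and the transcription factor SREBF1 (−0.69 ± 0.46) missed the threshold, and passed it with the replicate block (edgeR's adjusted p = 1.27e-05, 0.00425 and 0.00224). Fatty acid oxidation and ketogenesis had 27 of 36 lower, from the carnitine shuttle (CPT1A −2.15, SLC25A20 −2.96, CPT2 −1.30) to the dehydrogenases ACADM (−1.16) and HADH (−2.49) and the thiolase ACAA2 (−2.30). The mitochondrial dehydrogenase ACADVL was the 1 higher member (0.73), and missed the threshold when BRM library 2 was left out (adjusted p 0.0734). The median log2 difference was −0.98 over the synthesis list and −1.38 over the oxidation list.

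Enzymes of glucose release were lower in BRG1 knockdown, while several genes of glucose uptake and early glycolysis were higher. The lower enzymes were PCK1, given above, and the last enzyme of the pathway, G6PC, which was at 0.158, 0.103, 0.174 and 0.639 CPM in BRG1 knockdown and 7.58, 15.3 and 6.27 in BRM knockdown. Both groups of G6PC values were low, and the shNS level was 0.465 to 0.830 CPM. The liver glucose transporter SLC2A2 (−1.80) was lower as well. Of 26 gluconeogenesis and glycogen genes tested, 15 were lower. The widely expressed glycolytic genes HK1 (3.12) and PFKP (3.43) and the transporter SLC2A3 (2.05) were higher. HK1 was at 18.8, 17.7, 21.4 and 24.7 CPM in BRG1 knockdown against 1.69, 2.20 and 3.14 CPM, with 4.08 to 7.47 in shNS. The other phosphofructokinase genes, PFKM (−0.89) and PFKL (−1.29), were lower, though PFKL missed the threshold when 1 of BRG1 libraries 1 and 2 and BRM library 3 was left out (adjusted p 0.0594 to 0.116). Most of the remaining glycolytic enzymes, from GPI to LDHA, did not pass the test. The glycolysis and hypoxia list as a whole had 9 members higher (25.7%) and 8 lower (22.9%) of 35, beside 17.2% and 16.7% of all tested genes. With the replicate block 14 were lower, beside 24.4% of all tested genes.

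Of 40 genes of the urea cycle and amino acid breakdown, 20 were lower. They included the methionine cycle enzymes BHMT (−5.12), GNMT (−4.92) and MAT1A (−2.53) and the urea cycle enzymes CPS1 (−1.88) and ASS1 (−2.93). The 3 higher members included NAGS (2.18) and ARG2 (1.65), the arginase form best known outside hepatocytes. The hepatocyte glutaminase GLS2 was lower (−1.50). ARG1, the hepatocyte arginase, did not pass the test (log2 −2.002 ± 0.91). NAGS makes the activator of CPS1.

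Enzymes of drug and bile acid handling were mostly lower where they passed the test. Of 20 glucuronidation and sulfation genes, 10 were lower and 0 were higher by edgeR, and 0 were higher at an unadjusted p under 0.05 or by DESeq2. With the replicate block 1 was higher, SULT1B1 (edgeR's adjusted p = 0.0117, log2 1.13; 0.307 and 0.78 without it). The lower genes were led by UGT2B4, UGT1A3 (−5.05) and SULT2A1 (−3.22). UGT1A transcripts share exons, which limits their separate estimates. The aldo-keto reductases AKR1C1 (−2.97), AKR1C2 (−3.48), AKR1C3 (−2.99) and AKR1C4 (−4.96), which reduce steroids and are also near copies of each other, were all lower. Of 32 P450 genes, 12 were lower, including CYP4F2 (−5.15), CYP17A1 (−3.89), CYP8B1 (−2.48) and CYP3A7 (−2.03). The 3 higher P450 genes included CYP26B1 (3.02), which degrades retinoic acid, and CYP24A1 (2.81), which degrades vitamin D. Among aldehyde dehydrogenases ALDH1A1 was lower, at 95.4 to 105 CPM against 1080.3 to 1661. Its relative ALDH1A3, which makes retinoic acid, was higher, but rested on 88 counts in BRG1 knockdown against 1 in BRM knockdown. Of 17 glutathione transferases, 4 were lower (23.5%, beside 16.7% of all tested genes), GSTA1, GSTA2, MGST1 (−1.94) and 1 more. In this list 1 was higher (5.88%, beside 17.2%). With the replicate block 7 were lower and 3 higher, beside 24.4% and 25% of all tested genes.

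Several hepatocyte transcription factors were lower in BRG1 knockdown, though not all. Of 28, 11 were lower and 3 higher, with 17 lower under the replicate block. NR1H4, the bile acid receptor FXR, was at 3.63, 2.69, 9.14 and 10.4 CPM in BRG1 knockdown, 129.9, 111 and 79.2 in BRM knockdown and 37.3 to 51.4 in shNS (log2 −4.04 ± 0.42, adjusted p = 7.83e-06). CEBPA was at 34.3, 35.7, 136 and 169 CPM against 277, 497 and 623 CPM, with 115 to 220.2 in shNS. HNF4A, a central factor of hepatocyte identity, was lower by 2.45-fold, at 100.04, 111, 196 and 221 CPM against 293, 407 and 456 CPM. ONECUT1 (−2.34), CREB3L3 (−1.58) and FOXA1 (−1.20) were lower too, while ONECUT2 (1.31) and TBX3 (1.04) were among the higher. FOXA3 (log2 −0.93 ± 0.77), PROX1 and CEBPB did not pass the test. With the replicate block FOXA3 and CEBPB passed it, with edgeR's adjusted p = 6.18e-04 and 0.00409 and log2 differences of −1.42 and −0.55.

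Among the 43 lists, the one with the largest share of higher members was that of AP-1, immediate early and ERK output genes, transcripts induced by growth factor signalling. Of 34 tested, 27 were higher in BRG1 knockdown and 2 lower, with a median of 1.67 beside −0.024. Among the AP-1 subunits, FOSL1 was at 149, 145, 165 and 154 CPM in BRG1 knockdown, 7.66, 8.85 and 14.2 in BRM knockdown and 23.4 to 26.5 in shNS (log2 3.90 ± 0.23, adjusted p = 2.45e-07). FOS (4.11), FOSB (4.28) and JUNB (2.02) were higher, JUND (−1.39) and ATF3 (−2.01) were lower, and JUN and FOSL2 did not pass the test (edgeR's adjusted p = 0.0224 for JUN with the replicate block). FOS missed the threshold when BRM library 2 was left out (adjusted p 0.0516). EGR1, an immediate early factor, was at 103, 89.2, 52.9 and 48.8 CPM against 3.71, 3.60 and 4.89 CPM, with 19.8 to 41.9 in shNS. Each BRG1 library was above, and each BRM library below, the whole shNS range of EGR1. The inhibitors that ERK signalling induces against itself were higher in BRG1 knockdown as well: the phosphatases DUSP4 (2.80), DUSP5 (3.31) and DUSP6 (3.21), and SPRY1 (2.56), SPRY2 (2.20), SPRY4 (3.26), SPRED1 (1.01) and SPRED2 (1.17).

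Within the EGFR family, the called ligands and the called receptors differed in opposite directions. The ligands AREG, HBEGF (3.97), TGFA (0.74) and NRG1 were higher in BRG1 knockdown. AREG was at 75.9, 89.2, 52.3 and 45.4 CPM in BRG1 knockdown, 1.93, 1.75 and 1.80 in BRM knockdown and 7.84 to 18.4 in shNS. The receptors ERBB2 (−1.18) and ERBB3 (−1.61) were lower, as was the receptor inhibitor LRIG1 (−2.18). ERBB3, which binds NRG1, was at 46.8, 47.9, 116 and 151 CPM against 273, 310.3 and 242 CPM. EGFR did not pass the test (log2 0.70 ± 0.29, edgeR's adjusted p = 0.0829, and 0.0231 with the replicate block), with 152 to 333 CPM in BRG1 knockdown and 109 to 178 in BRM knockdown. ERRFI1, an inhibitor of EGFR, was higher (2.09).

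**Figure D4:**
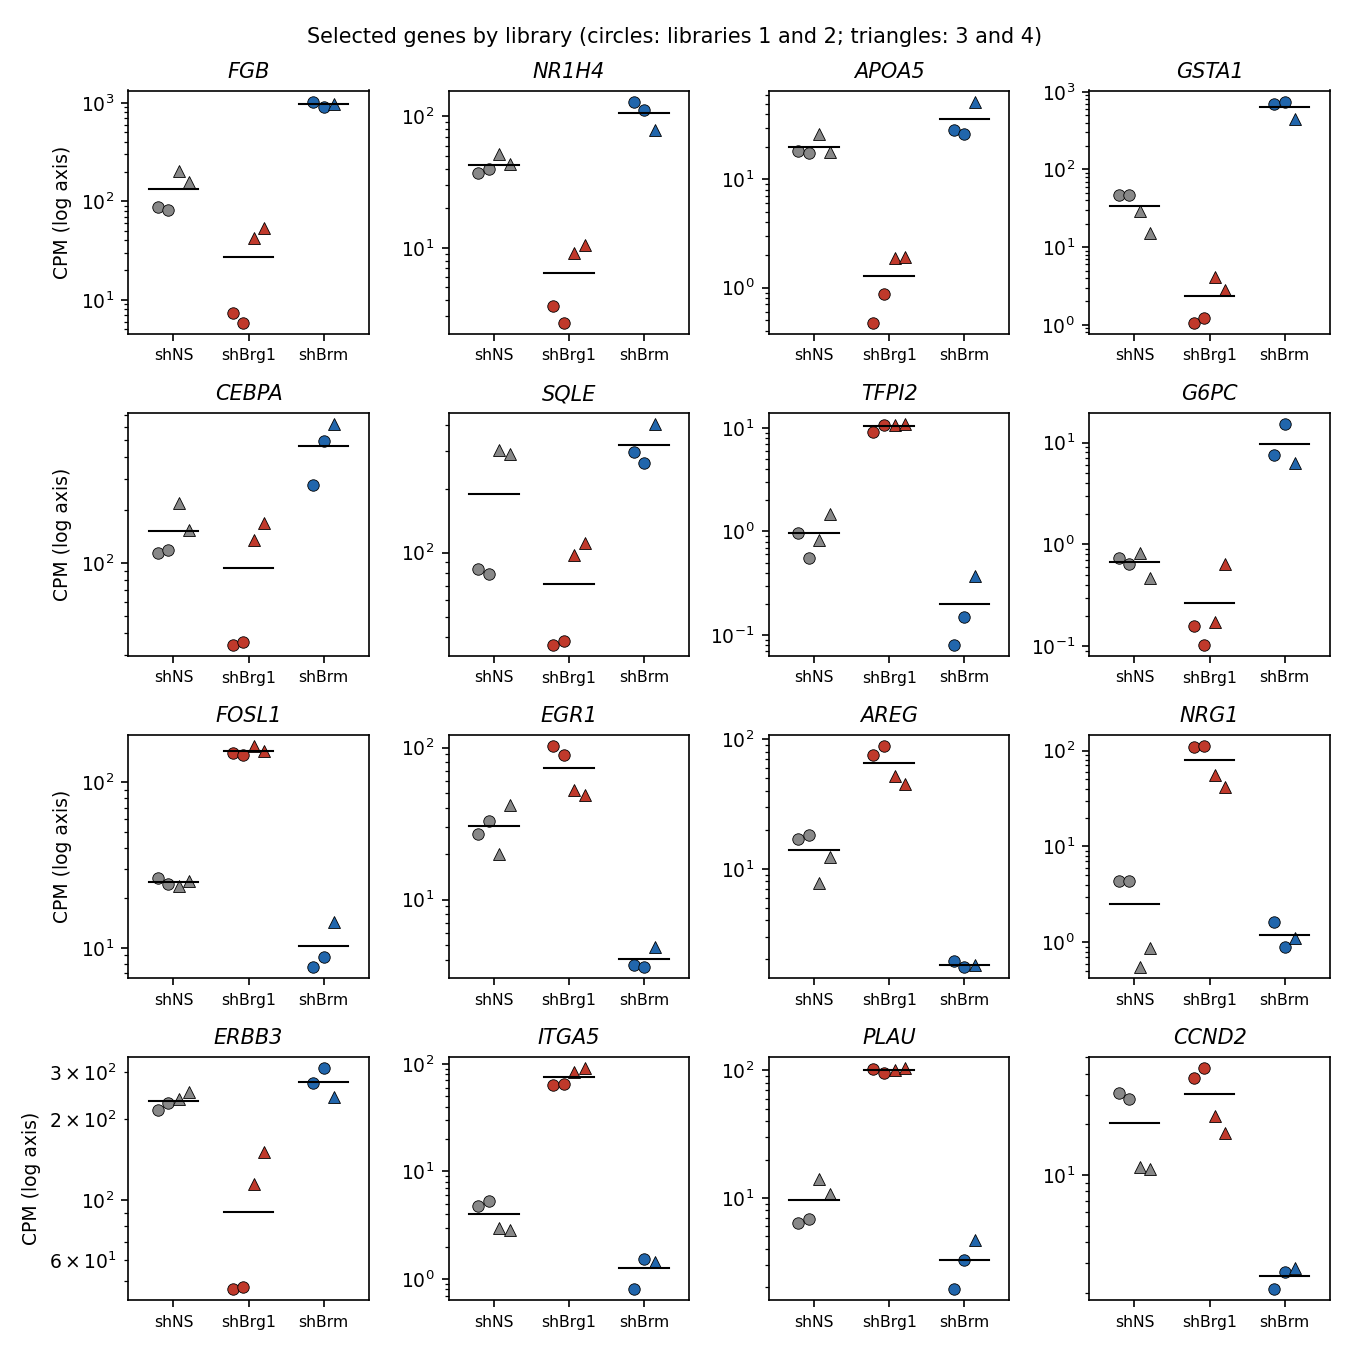
CPM on log axes of 16 genes named in the text in each shNS, BRG1 knockdown and BRM knockdown library. Circles are libraries 1 and 2, triangles libraries 3 and 4 and lines group means; in all 16 the BRG1 libraries lie apart from the BRM libraries, for example FOSL1 at 145 to 165 CPM against 7.66 to 14.2.

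Genes of cell adhesion, matrix and the cortical actin layer were more often higher than lower. Of 36 genes of the YAP and Hippo list, 15 were higher and 2 lower, and 20 and 4 with the replicate block. The YAP targets CTGF (2.66), AMOTL1 (2.53) and AXL (3.48), and YAP1 itself (2.14), were higher, while AJUBA (−1.35) and IGFBP3 (−1.43) were lower. IGFBP3 missed the threshold when 1 of BRG1 libraries 2, 3 and 4 and BRM libraries 1 and 2 was left out (adjusted p 0.0645 to 0.166). Of 41 TGF-beta target and mesenchymal genes, 19 were higher, among them the latent TGF-beta binding proteins LTBP1 (4.23) and LTBP2 (3.62), the collagen COL5A1 (5.28), the protease inhibitor TIMP1 (4.44) and the feedback inhibitor PMEPA1 (4.34). TIMP1 was at 686, 488, 1042 and 995 CPM against 14.99, 28.2 and 67.7 CPM. ACTA2 (−1.17) and LOX (−1.67) were among the 3 lower members, and FN1, CDH2 and TAGLN did not pass the test (edgeR's adjusted p = 0.0355 for FN1 with the replicate block). The sum over 8 stromal marker genes, scaled to library size only and not to composition, was 55.4 to 275 in BRG1 knockdown. It was 13.5 to 21.0 in BRM knockdown and 30.3 to 76.3 in shNS. COL1A1 (3.09) was the called marker of the 2 tested, both of which were higher with the replicate block. The part of other cells in these differences was not tested.

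Of 28 integrin and laminin chains, 11 were higher and 3 lower. ITGA5, the chain that with ITGB1 forms the fibronectin receptor, was at 63.3, 64.7, 83.7 and 91.5 CPM in BRG1 knockdown, 0.806, 1.55 and 1.43 in BRM knockdown and 2.88 to 5.29 in shNS. ITGB1 (1.66), ITGA2 (3.67), ITGA3 (2.01), ITGA6 (1.31) and ITGAV (1.34) were higher, and the leukocyte chain ITGB2 was lower (−4.29). Actin linkers, annexins and membrane proteins had 14 of 33 members higher, including caveolin CAV1 (3.93), moesin MSN (3.15) and the calcium-binding S100A11 (3.91), whereas ANXA4 (−1.94), ANXA6 (−1.34) and ANXA9 (−2.81) were lower. Of 36 epithelial junction and keratin genes, 7 were higher (19.4%, near the 17.2% of all tested genes) and 10 lower (27.8%, beside 16.7%). The keratins KRT18, KRT19 and KRT23 (0.94) were higher, and E-cadherin CDH1 (−1.31), the tight junction protein TJP3 (−3.80) and the epithelial factor OVOL1 (−3.78) were lower. CDH1 missed the threshold when BRM library 2 was left out (adjusted p 0.0668). The E-cadherin repressors ZEB1 (1.13) and SNAI1 (1.47) were higher and SNAI2 and ZEB2 did not pass the test (edgeR's adjusted p = 0.00335 for ZEB2 with the replicate block).

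Chemokine and NF-kB genes were also more often higher, 10 of 22 against 4 lower. CCL5 (4.52), IL18 (3.93), CXCL8 (2.49), LIF (2.74) and the survival gene BIRC3 (2.44) were higher, and the inhibitor NFKBIA was lower (−0.69). The lower count was 1 without BRG1 library 1 or BRG1 library 2 and 2 without BRM library 2. The interferon and MHC class I list had 4 higher (11.4%) and 9 lower (25.7%) of 35, beside 17.2% and 16.7% of all tested genes. With the replicate block 16 were lower, beside 24.4% of all tested genes. HLA-B (−1.36), HLA-C (−0.70) and their partner B2M (−0.83) were among the lower genes. IFIT1, an antiviral RNA-binding protein, was at 1.22 to 1.499 CPM in BRG1 knockdown and 11.5 to 21.8 CPM in BRM knockdown.

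Of 31 genes of iron handling and BMP signalling, 6 were higher and 6 lower, 19.4% each way, near the 17.2% and 16.7% of all tested genes. BMP6, the ligand that induces hepcidin, was at 50.6, 53.2, 13.5 and 11.5 CPM in BRG1 knockdown and 0.564, 0.600 and 0.461 in BRM knockdown, with 0.184 to 0.721 in shNS (log2 5.89 ± 0.66, adjusted p = 1.36e-05). HAMP, the gene of hepcidin, was at 14.9, 13.5, 83.7 and 69.0 CPM against 196, 208 and 199 CPM (log2 −2.15 ± 0.71, adjusted p = 0.0305). The HAMP difference is less firm: its adjusted p was 0.0664 with the replicate block, and it missed the threshold when 1 of BRG1 libraries 1 and 2 and BRM libraries 1, 2 and 3 was left out (adjusted p 0.0531 to 0.0772). TFR2 (−3.40), the transferrin sensor of hepatocytes, and the protease TMPRSS6 (−2.75) were lower, and so was the ferritin heavy chain FTH1. SLC40A1, the iron exporter, and TFRC did not pass the test (edgeR's adjusted p = 0.0165 for TFRC with the replicate block).

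Cell division genes that passed the test were mostly lower in BRG1 knockdown. Of 48 genes of G1/S and DNA replication, 23 were lower and 4 higher, and 37 were lower with the replicate block. The helicase subunits MCM4 (−1.29) and MCM6 (−1.17) and the clamp PCNA (−1.14) were among the lower genes. The higher genes were CCND1 (1.61), CCND2 (3.575), CCND3 (1.09) and E2F3 (1.22), of which CCND3 missed the threshold when 1 of BRG1 libraries 1, 2 and 3 and BRM libraries 1 and 2 was left out (adjusted p 0.0508 to 0.133). CCND2 was at 37.8, 43.2, 22.3 and 17.8 CPM in BRG1 knockdown, 2.10, 2.65 and 2.81 in BRM knockdown and 10.8 to 30.8 in shNS, so that the BRG1 range overlapped the shNS range and the BRM values lay below both. Of 43 G2/M genes, 19 were lower, among them CCNB2 (−1.48), BIRC5 (−1.83) and CDC25C (−2.05), and 1 was higher, ECT2 (0.90), an exchange factor of cytokinesis, which missed the threshold when BRM library 2 was left out (adjusted p 0.0632). Without BRM library 1 the lower count was 10, and without BRG1 library 1 or BRG1 library 2 it was 11. The list medians were −1.22 in libraries 1 and 2 and −0.32 in libraries 3 and 4.

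**Figure D5:**
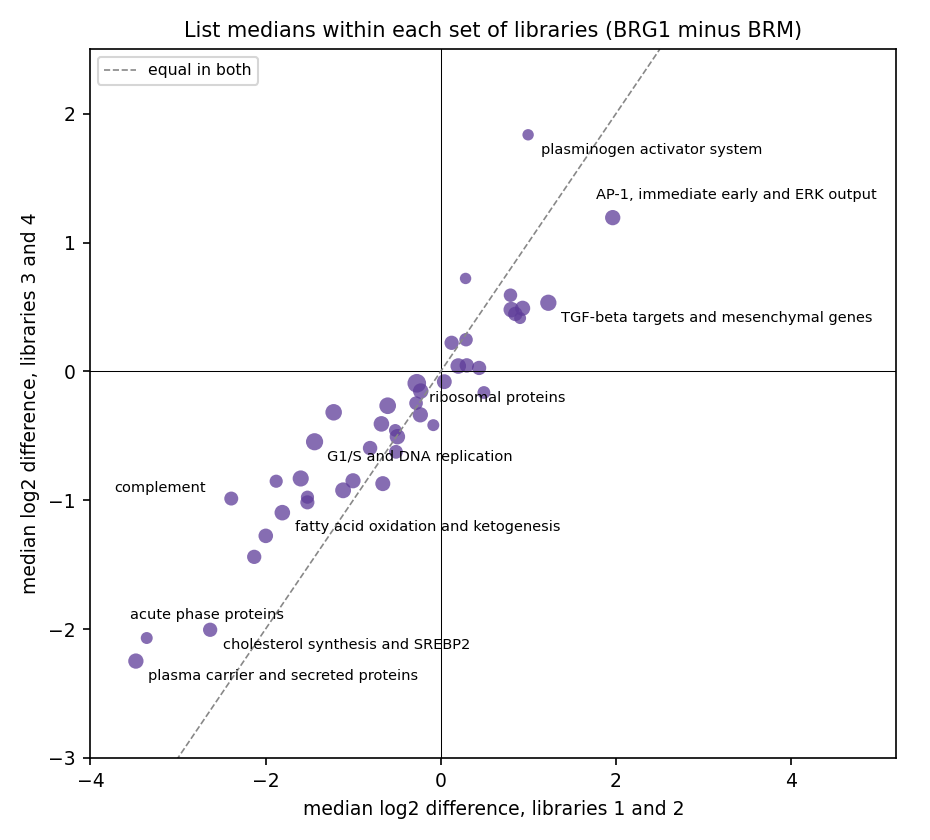
Median log2 difference (BRG1 minus BRM knockdown) of 43 gene lists in libraries 1 and 2 against that in libraries 3 and 4; point area increases with the number of tested members and the dashed line marks equal values. The plasma protein list lies at −3.48 and −2.25 and the AP-1 list at 1.96 and 1.19.

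Stress pathways were mixed. The p53 target list had 4 members higher (11.8%) and 10 lower (29.4%) of 34, beside 17.2% and 16.7% of all tested genes. With the replicate block 7 were higher, beside 25% of all tested genes. Among them PMAIP1 (2.48) was higher and SESN1 (−1.52) lower, and CDKN1A and MDM2 did not pass the test. The ATF4 and unfolded protein response list had 12 of 36 lower, led by the serine synthesis enzyme PHGDH (7.91 to 65.6 CPM in BRG1 knockdown against 214 to 739.6), and 19 lower with the replicate block. The higher members were 3, and 5 with the block, beside 17.2% and 25% of all tested genes. Nuclear-encoded respiratory chain genes had 11 of 44 lower (25%, beside 16.7% of all tested genes). With the replicate block 22 were lower, beside 24.4% of all tested genes. The lower count was 4 to 6 without BRG1 library 1, BRG1 library 2 or BRM library 2. None of the 13 mitochondrially encoded transcripts and 1 of 60 ribosomal protein genes, RPL14, passed edgeR's test, beside 33.9% of all genes. Of the 13, 0 were at an unadjusted p under 0.05 and 0 were called by DESeq2. With the replicate block 8 ribosomal protein genes were lower, beside 24.4% of all tested genes.

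Among the remaining SWI/SNF subunits most did not differ beyond the test. Of 28 tested, SMARCA2 and 6 others were higher in BRG1 knockdown, SMARCD1 (1.29), ARID1B (0.92), ARID2 (0.91), BRD9 (0.82), SS18 (0.79) and SMARCC2 (0.74), and PHF10 (−1.67) was lower with SMARCA4. SMARCD1 missed the threshold when 1 of BRM libraries 1 and 2 was left out (adjusted p 0.0600 to 0.0781). ARID1A, SMARCB1 and SMARCC1 did not pass the test (edgeR's adjusted p = 0.00108 for SMARCB1 with the replicate block, log2 −0.67). Of 22 ATPases of other remodelling families, 3 were higher, led by SMARCAD1 (1.57), and 2 lower, SMARCA1 (−0.97) and HELLS (−1.04). With the replicate block 5 SWI/SNF genes were lower and 6 other ATPases higher and 3 lower. Of all tested genes 25% were higher and 24.4% lower with the block. Without BRM library 1, 9 other ATPases were higher. Of 27 Polycomb genes, which encode the repressors that act against SWI/SNF, 7 were higher, including PHC1 (2.78) and JARID2 (1.93), and 5 lower, including the methyltransferase EZH2 (−1.03). Without BRM library 2, 4 Polycomb genes were higher and 3 lower, and without BRG1 library 2 also 3 were lower. In all, 9 of 28 SWI/SNF genes, 5 of 22 other ATPases and 12 of 27 Polycomb genes were called, beside 33.9% of all tested genes.

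Some called genes lay side by side in the genome. Runs of at least 4 neighbours were sought along the chromosomes, in the order of GENCODE starts and over tested genes only. There were 24 higher runs, holding 105 of the 2520 higher genes, and 31 lower runs, holding 132 of the 2437 lower genes. Of all tested genes 17.2% were higher and 16.7% lower. How many runs these shares alone would give was not computed, and clustering was not tested. The longest higher runs had 6 genes each. One held S100A6, S100A5, S100A4, S100A3, S100A2 and S100A16, calcium-binding proteins on chromosome 1 from 153534599 to 153613145, with log2 differences of 1.51 to 3.82, of which S100A5 missed the threshold when BRM library 3 was left out (adjusted p 0.0545). The other held CCDC74A, C2orf27A, AC093724.1, AC098826.2, GPR39 and LYPD1 on chromosome 2. Its member AC098826.2 had no count in the BRM libraries and 108 in the BRG1 libraries, at least 22.1-fold higher when set against 3 counts over the BRM group, and LYPD1 had 3 counts against 263. AC098826.2 missed the threshold when 1 of BRG1 libraries 1 and 2 and BRM libraries 1, 2 and 3 was left out (adjusted p 0.0523 to 0.0759), and C2orf27A when 1 of BRG1 libraries 1 and 2 and BRM libraries 2 and 3 was left out (adjusted p 0.1002 to 0.159). A run of 5, RTCA, CDC14A, EXTL2, SLC30A7 and DPH5 on chromosome 1, had smaller differences of 0.37 to 1.38. RTCA missed the threshold when 1 of BRG1 library 1 and BRM library 3 was left out (adjusted p 0.0698 to 0.0797) and DPH5 when 1 of BRG1 libraries 1, 3 and 4 and BRM libraries 1, 2 and 3 was left out (adjusted p 0.0511 to 0.110). Lower runs included the acyl-CoA synthetases ACSM5, ACSM2A, ACSM2B, ACSM3 and ACSM1 on chromosome 16, from 20409534 to 20797581, with log2 differences of −5.56 to −2.33. Another held C1S, C1R, C1RL, RBP5 and CLSTN3 on chromosome 12, and another AGXT, SNED1, MTERF4, PASK and PPP1R7 on chromosome 2. C1RL missed the threshold when BRM library 2 was left out (adjusted p 0.0651) and PPP1R7 when 1 of BRG1 library 2 and BRM library 2 was left out (adjusted p 0.0606 to 0.114). Shorter lower runs, named after their values were seen, were the apolipoprotein cluster APOA5, APOA4, APOC3 and APOA1 on chromosome 11, AKR1C1 to AKR1C4 on chromosome 10, and PGLYRP2 with CYP4F3, CYP4F12 and CYP4F2 on chromosome 19. Members of a gene family in one run share sequence as well as position.

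Markers of other cell types were read beside the hepatocyte genes. Of 14 hepatocyte or HepG2 markers all were detected in every group. The marker sums were scaled to library size only and not to composition, unlike the CPM of single genes. The TMM factors left out of the sums ran from 0.804 to 1.12 in the BRG1 and BRM knockdown libraries. The hepatocyte sum was 7693 to 22690 in BRG1 knockdown, 47470 to 54080 in BRM knockdown and 30220 to 40880 in shNS. The sum over 8 cholangiocyte markers was 3222 to 4858 in BRG1 knockdown against 509.8 to 825.9 in BRM knockdown, mostly KRT19. The blood and macrophage sum was 769 to 1356 against 133 to 198, and 509 to 1626 in shNS. Of its 5 tested markers LYZ (3.13) was higher and HBA1 (−2.28) lower, and 2 were lower with the replicate block. The neural sum was 699 to 969 against 140.7 to 394, from TUBB3 (1.43), which missed the threshold when 1 of BRM libraries 1 and 2 was left out (adjusted p 0.0559 to 0.0649). The endothelial sum was 5.84 to 7.17 against 4.94 to 8.22, and 1 of its 3 tested markers, VWF, was lower (−2.44), but missed the threshold when 1 of BRG1 libraries 1 and 2 and BRM library 3 was left out (adjusted p 0.0682 to 0.184). Fewer cells of a type and less RNA per cell cannot be told apart in these bulk libraries. By gene type, 18.0% of 13461 protein-coding genes were higher and 17.3% lower, against 6.94% and 7.99% of 864 pseudogenes. The gene types were not matched for counts, and few counts limit the test.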

How the data were processed

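RNA-seq libraries of HepG2 cells were made from total RNA with an mRNA-seq kit, per the labels. The authors deposited 1 table of counts for 15 libraries over 35012 gene symbols, and its whole numbers are read here as estimated counts, since the submitters' processing notes name kallisto, DESeq2 and GRCh38 without versions; the annotation release is not given in the sources used here. The authors' own comparison tables were not used. Libraries were grouped by their labels, and totals ran from 12550787 to 26998203 counts in the 7 libraries compared. Counts were fitted with edgeR 4.0.16 (R 4.3.3; TMM, filterByExpr, robust quasi-likelihood F test, 1 mean per group over all 15 libraries), two-sided, with Benjamini-Hochberg adjustment over 14621 genes and a threshold of 0.05; CPM are TMM-scaled. The SE is the absolute log2 difference over the square root of F. The script was tested on simulated data. Precision is limited by the 4 against 3 libraries and, for genes with few counts, by depth.

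Same-numbered BRG1 and BRM libraries deviated together (correlations 0.471, 0.104 and 0.532 for numbers 1, 2 and 3 over genes), so a fit with the number as a block was made. This is a hint from the data. Libraries of the same set with different numbers deviated together as much (BRG1 2 with BRM 1 0.484, BRG1 1 with BRM 2 0.138, BRG1 4 with BRM 3 0.570), so that the pairing is by set and not shown by number. No libraries of a group agreed within sampling noise. Alternatives were DESeq2 1.42.0, its size factors in edgeR, no filter, the 7 libraries alone, the replicate block, the set as a term, each set alone, and each library left out. GENCODE v29 names matched 14384 tested genes, and 10958 tested genes had a RefSeq promoter.

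The comparison, the gene lists and the tests were chosen with earlier results of these data known. The rule for named genes took called genes only. For the 12 largest log2 differences and 6 largest CPM differences each way, 2 limits held. These were a mean of at least 2 CPM over the 7 libraries and no overlap between groups. Without these limits, the rule took in each list up to 2 members each way by smallest adjusted p. It also took, without them, the genes of the longest runs of neighbours, of at least 4. The other named list members were chosen after their values were seen, to show the roles within a list. Some genes that the rule takes are not reported here. No set test was run; lists are described by counts and medians.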

Additional observations from a re-analysis of the deposited data

Results flagged for a closer look

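Of 304 values in the 4 BRG1 knockdown libraries that were checked for 1 library far from the other 3, 6 were set apart. Chance flags about 1 in 20 where the 4 libraries vary alike and independently. Libraries 1 and 2 differed from libraries 3 and 4, so that this rate cannot be set against the 6. The 3 BRM knockdown libraries were too few for this check. MTTP was at 15.3 CPM in BRG1 library 4 and at 2.13 to 3.44 in the other 3. G6PC was at 0.639 CPM in BRG1 library 4 and at 0.103 to 0.174 in the others, a few counts in each. SMARCA4, the target of the hairpin, was lowest in BRG1 library 4, at 24.4 CPM beside 28.6 to 29.3. SMARCA1 was at 164.7 CPM in BRG1 library 1 beside 158 to 158.4, and C1RL at 29.8 CPM in BRG1 library 2 beside 26.4 to 26.97. ECT2 was at 66.9 CPM in BRG1 library 4 beside 53.9 to 55.0 in the others.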

How the results depend on the processing

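The directions of SMARCA4, SMARCA2 and all other named called genes were kept under every alternative run, and SMARCA4 and SMARCA2 passed the test in all of them. The number of genes higher in BRG1 knockdown was 2520 and moved to 3795 with the set of libraries as a term and to 3810 within libraries 1 and 2; the number lower was 2437 and moved to 3864 with the set term. Leaving out each library in turn gave 2026 to 2453 higher and 1903 to 2357 lower genes. With library number as the replicate block 3654 genes were higher and 3565 lower, and 4942 of the 4957 calls were shared in the same direction; of the named genes it ended the call of CP and HAMP and made calls of 13 of the 28 that had missed the threshold, each given in the report, and it changed no other call of a named gene. Counts that the block moved by over 1.5 times stand beside the lists whose counts the report gives. The set term moved 27 of 98 list counts, against 20 for the block, and its counts are not printed beside the lists. Of the named called genes other than the targets, the set term ended 0 of 272 calls. It made calls of 13 of the 28 that had missed the threshold. DESeq2 called 2824 each way. Fitted on the 7 libraries alone, edgeR called fewer genes, 1984 higher and 1879 lower, and shared 3776 of the 4957 calls in the same direction. Of 272 named called genes other than the targets, 26 lost the call within libraries 3 and 4, where BRM knockdown has 1 library whose spread is taken from the other groups, 4 with no filter and 8 with the 7 libraries alone. Leaving out 1 library ended the call of 21 named genes, most often without BRM library 2 (17). Genes with few counts in one group, such as KLK6, ALDH1A3 and LYPD1, have uncertain fold differences at this depth. Among the 28 named genes that missed the threshold, log2 differences turned as follows, with no test passed on the turned side. GPI was at −0.24 with the replicate block, −0.22 with the set term, −0.23 within libraries 1 and 2, −0.27 within libraries 3 and 4, and −0.32 to 0.84 with 1 library left out. CDH2 (0.35) and TTR (−0.021) turned within libraries 1 and 2. HP (0.054), LDHA (0.038), SLC40A1 (−0.031) and TAGLN (−0.073) turned within libraries 3 and 4. With 1 library left out FOXA3 ran from −1.43 to 0.11 and TTR from −0.014 to 0.33.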

Other observations

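Wnt target genes went both ways, more often higher in BRG1 knockdown. Of 27 tested, 12 were higher (44.4%) and 6 lower (22.2%), beside 17.2% and 16.7% of all tested genes. Without BRM library 3, 3 were lower. The transcription factor SOX4 (3.46) and the secreted inhibitor DKK1 (2.29) were higher, and the receptor FZD7 (−2.11) was lower. SOX4 was at 304, 371, 285 and 230.4 CPM in BRG1 knockdown and 17.6, 32.5 and 30.8 CPM in BRM knockdown, with 63.3 to 121 in shNS.

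Genes of fetal liver and liver tumours did not share a direction. SALL4 (3.60), CD24 (3.12) and the RNA-binding LIN28B (1.19) were higher in BRG1 knockdown, and AFP, GPC3 (−1.35) and IGF2 (−1.36) were lower. SALL4, a stem cell transcription factor, was at 2.72, 3.21, 1.52 and 1.57 CPM in BRG1 knockdown, 0.0806, 0.300 and 0.138 in BRM knockdown and 0.0922 to 0.641 in shNS. Of 18 tested genes of metallothioneins and metal transport, 3 were higher and 3 lower, 16.7% each way, near the 17.2% and 16.7% of all tested genes. With the replicate block 7 were higher and 4 lower, beside 25% and 24.4%. MT1A (3.46) and MT2A were higher while the manganese exporter SLC30A10 was lower, at 0.907 to 3.70 CPM against 22.4 to 33.6. The other tested metallothioneins did not pass the test, with log2 differences of −1.27 to 1.45.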
